A study of Lactuca sativa with 6 samples.

Results

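The comparison described here sets the leaves of lettuce (*Lactuca sativa*) seedlings treated with an extract of the green microalga *Scenedesmus quadricauda* (*Ls*Sq, 2 libraries) against the leaves of untreated seedlings (*Ls*CK, 2 libraries), 4 of the 6 libraries of the series. *Ls*Sq seedlings received 500 mL of Hoagland solution with the extract at 1 mg of organic carbon per litre, and *Ls*CK seedlings received 500 mL of Hoagland solution alone. Both groups had been acclimatized for 6 days, were grown 10 to a box on pumice under a 16 h photoperiod, and were sampled 4 days after the treatment. The methods describe 5 biological replicates for treatments, and nothing in the labels ties a library to a box or to single plants, so the spread between the libraries of a group may be partly technical. The remaining 2 libraries came from seedlings given a *Chlorella vulgaris* extract (*Ls*Cv) and entered the fit only to share its estimate of the spread. A cluster is a group of transcripts that the authors assembled without a genome and counted as 1 gene, and 28157 of the 39253 deposited clusters had enough counts for a test.

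Extracts of microalgae are used as biostimulants, preparations that are given in small amounts and act on growth rather than as fertilizer. They carry amino acids, polysaccharides and hormone-like compounds, and plants perceive such signals partly through the cytokinin and auxin pathways and through receptor-like kinases at the cell surface. Cytokinins promote cell division and keep leaves green, auxins direct growth and patterning, and small secreted peptides are read by receptors with leucine-rich repeats. The study named clusters of these pathways in its tables, and clusters are named here only where those tables name them. No gene that defines leaf tissue, such as a photosystem or RuBisCO gene, is among them, so the leaf label was not checked by markers.

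The total count per library was between 26408716 and 35184764, and 3 counts correspond to 0.0858 to 0.111 CPM (counts scaled to the library total and its TMM factor). The *Ls*CK libraries differed from each other more than the *Ls*Sq libraries did, with a median absolute log2 ratio between replicates of 0.30 in *Ls*Sq and 0.59 in *Ls*CK, and the *Ls*CK ratio was the larger in 68.0% of the clusters. *Ls*CK replicate 2 also stood apart in the animal-described clusters of the study's list of shared genes. The 619 clusters of the study's list of shared genes whose best protein match is an animal protein held 75 and 94 counts in the *Ls*Sq libraries, against 126 counts in *Ls*CK replicate 1 and, in replicate 2, 31135, which is 0.118% of that library (95% Wilson interval 0.117 to 0.119%, counting error only). Only that list was searched, so animal-described clusters outside it were not counted in any library. The study called its members against *Ls*CK with both extracts, so low counts in *Ls*Sq can follow from the selection. Of the 619, only 4 or fewer had any count in each *Ls*Sq library, 5 in *Ls*CK replicate 1 and all 619 in replicate 2. Differences are therefore given against each *Ls*CK library as well as against both. With the animal-described clusters left out, a setting chosen after the data had been seen, the clusters at an unadjusted p under 0.05 numbered 627 higher and 681 lower in *Ls*Sq, against 627 and 683 with them. Of the 1214 clusters of that list held here, 291 had enough counts for the test, and 271 of these have a plant description. Few animal-described clusters were thus tested, so the numbers could hardly differ and do not show whether those reads matter.

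No cluster passed the test of *Ls*Sq versus *Ls*CK. edgeR's quasi-likelihood test called 0 of 28157 clusters (0.0%) at the threshold of 0.05 on p-values adjusted by Benjamini-Hochberg, and the smallest of these was 0.962. At an unadjusted p under 0.05, 627 clusters (2.23%) lay higher and 683 (2.43%) lay lower in *Ls*Sq. DESeq2, the tool of the study, called 140 clusters with all 6 libraries in the fit (32 higher, 108 lower) and 174 with the 4 libraries (52 higher, 122 lower). No count in *Ls*CK replicate 1 or in either *Ls*Sq library stood behind 62 of the 140 and 66 of the 174, which were counted in *Ls*CK replicate 2. Among the DESeq2 calls that were also tested in edgeR, 76 of 76 and 105 of 106 kept a log2 distance of at least 1 from each *Ls*CK library, the criterion used further on. Of all tested clusters, 5.97% met it. The distances come from the same libraries as the calls, so they are no separate support for them. For any single cluster, the smallest two-sided p of an exact permutation of 2 and 2 libraries is 0.333. Fewer cells of a type and less RNA per cell cannot be told apart in bulk leaf tissue.

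The size of the difference depended on the level of expression. The median absolute log2 fold change was 0.38 over all clusters tested, and 1926 clusters lay higher and 2444 lower in *Ls*Sq by a log2 fold change of at least 1. In the 5400 clusters with a mean under 1 CPM over the 4 libraries, the median absolute log2 fold change was 0.78, and 39.1% of the clusters were past 1. It was 0.49 in the 5846 clusters of 1 to 5 CPM and 0.33 in the 7197 clusters of 5 to 20 CPM. The 7744 clusters of 20 to 100 CPM had a median of 0.26 with 4.6% past 1, and above 100 CPM the median was 0.29 to 0.31. CPM are not corrected for transcript length, so these levels rank clusters by their reads and not by molecules.

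At each level, the fold change stood beside replicate differences larger than itself in *Ls*CK, and from 1 CPM upwards somewhat smaller than itself in *Ls*Sq. Under 1 CPM, single libraries of the same group differed by a median absolute log2 ratio of 0.89 in *Ls*Sq and 0.92 in *Ls*CK. Between 20 and 100 CPM the replicate ratio was 0.19 in *Ls*Sq and 0.48 in *Ls*CK. In no level did the median fold change reach the ratio between the *Ls*CK libraries. The measures are unlike, since the fold change sets whole groups against each other and the ratio sets single libraries against each other. Their prior counts also differ. Which of them is larger, in *Ls*CK or in *Ls*Sq, is therefore no measure of signal against noise.

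**Figure D1:**
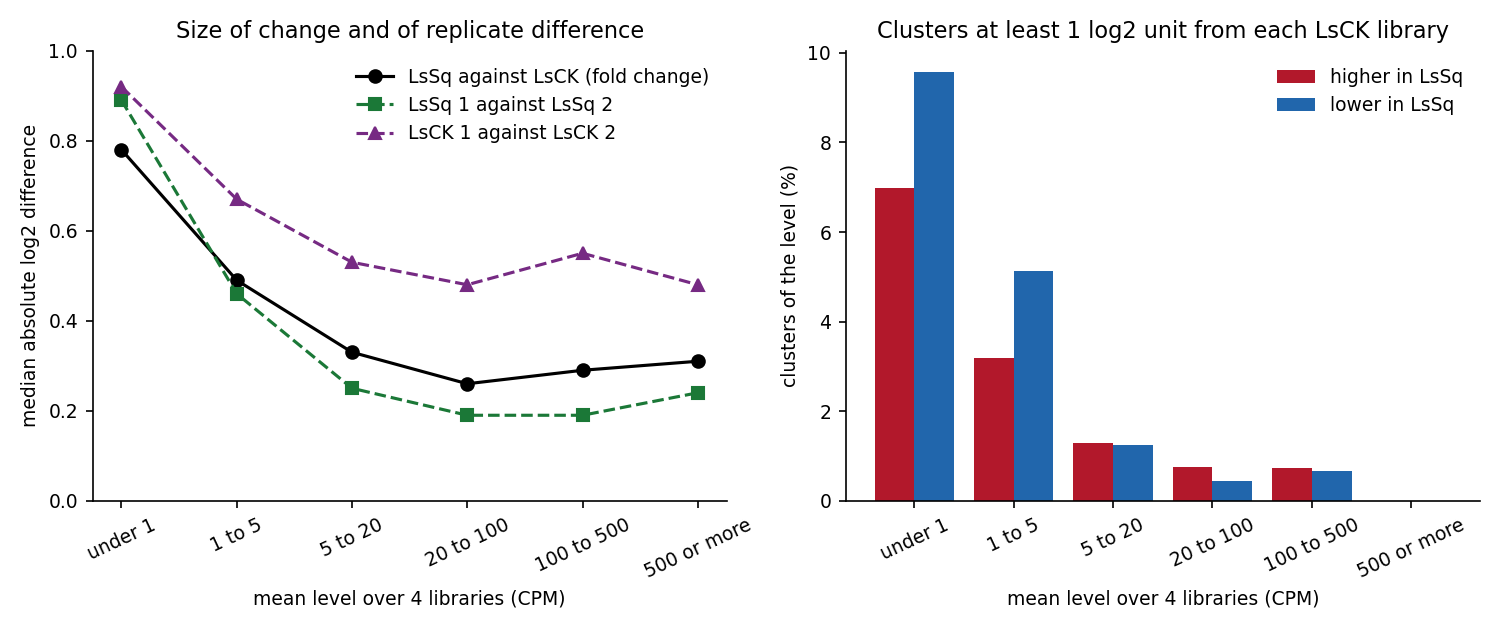
Left, median absolute log2 difference of *Ls*Sq against *Ls*CK (black, fold change of the fit) and between single libraries of a group (green for *Ls*Sq, purple for *Ls*CK) in 6 levels of mean CPM; right, percent of the clusters of each level with both *Ls*Sq libraries beyond both *Ls*CK libraries and the *Ls*Sq mean at least 1 log2 unit from each. The black line falls to 0.26 at 20 to 100 CPM and stays under the purple line at every level. The black line compares groups and the coloured lines single libraries, so their order is no measure of signal against noise. The bars fall to 0 at 500 CPM or more.

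Fold changes of the fit of at least 1 on the log2 scale leaned towards lower values in *Ls*Sq at every level under 100 CPM. Under 1 CPM, 998 clusters were higher and 1114 lower, at 1 to 5 CPM 477 and 713, at 5 to 20 CPM 245 and 361, and at 20 to 100 CPM 148 and 208. Between 100 and 500 CPM, 53 were higher and 43 lower, and at 500 CPM or more, 5 were higher and 5 lower. Against each *Ls*CK library alone, the limit of 1 was set on another measure, the *Ls*Sq mean log2 CPM (prior count 2) minus that of the library. On that measure the lean over all levels was the other way, and the measures are unlike, so these leans are not directly comparable. There, 3600 clusters lay higher and 3276 lower than replicate 1, and 2904 and 2778 for replicate 2. Counted without regard to size, the lean was also towards higher values. Both *Ls*Sq libraries lay above both *Ls*CK libraries in 6076 clusters (21.6%) and below both in 4802 (17.1%). At 500 CPM or more, 50 of 171 clusters lay above without overlap and 23 below, and at 100 to 500 CPM, 445 lay above and 247 below. Under 1 CPM these numbers were 991 and 987. With DESeq2's size factors in place of TMM, 5726 lay above and 5103 below, and under 5 CPM those below outnumbered those above (1001 against 972 under 1 CPM, 1179 against 1152 from 1 to 5 CPM), so this lean depends on the scaling at low levels and holds its direction from 5 CPM upwards.

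The position of *Ls*Sq was then read against each *Ls*CK library by itself, as the mean log2 CPM of the *Ls*Sq libraries (prior count 2) minus that of the *Ls*CK library. Against *Ls*CK replicate 1, 3600 clusters lay at least 1 higher and 3276 at least 1 lower. Against *Ls*CK replicate 2, 2904 lay at least 1 higher and 2778 at least 1 lower. The *Ls*Sq mean fell between the *Ls*CK libraries in 12051 clusters, 42.8% of those tested. In 621 clusters *Ls*Sq lay at least 1 below *Ls*CK replicate 1 and at least 1 above *Ls*CK replicate 2, and in 184 it was the other way round. In these 805 clusters the direction of the difference is set by which untreated library is used.

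A difference was said to hold against each *Ls*CK library where both *Ls*Sq libraries lay on the same side of both *Ls*CK libraries and their mean was at least 1 from each. This applied to 727 clusters (2.58%) higher and 953 (3.38%) lower in *Ls*Sq, together 1680, or 24.4% of the clusters past 1 against *Ls*CK replicate 1 and 29.6% of those past 1 against *Ls*CK replicate 2. Most had few reads, since 563 of the 727 and 817 of the 953 had a mean under 5 CPM. From 20 to 100 CPM, 58 held as higher and 34 as lower, from 100 to 500 CPM 13 and 12, and at 500 CPM or more none did in either direction. Past a log2 distance of 1.5 from each library, 255 held as higher and 423 as lower. An unadjusted p under 0.05 in edgeR went with 287 of the 727 and 365 of the 953, and those p-values use the same libraries as the criterion.

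**Figure D2:**
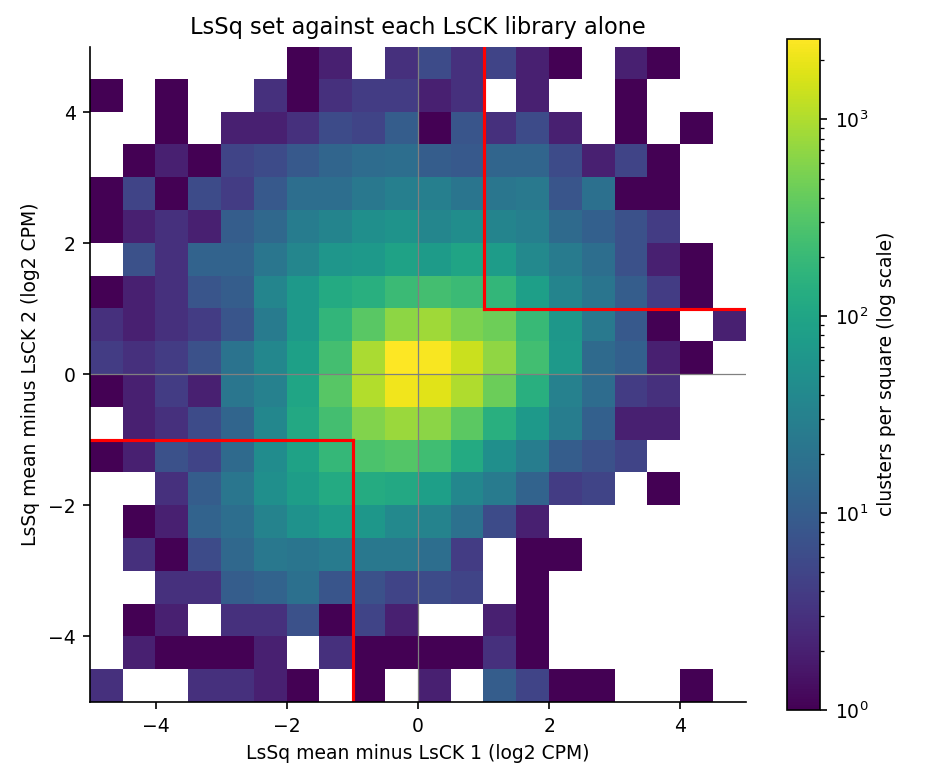
Clusters by the *Ls*Sq mean minus *Ls*CK replicate 1 (x axis) and minus *Ls*CK replicate 2 (y axis), in log2 CPM, coloured by the number of clusters per square on a log scale, with values beyond 5 drawn at the edge. The red corners enclose clusters at least 1 from each library, and the upper left, where *Ls*Sq lies below replicate 1 and above replicate 2, is fuller than the lower right (621 against 184 clusters past 1 in both).

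edgeR fits with 1 *Ls*CK library left out gave 0 calls after adjustment in either case, with a smallest adjusted p of 0.15 against *Ls*CK replicate 1 alone and 0.0525 against *Ls*CK replicate 2 alone. In such a fit the lone library is assumed to vary like the other groups. At an unadjusted p under 0.05, 1648 clusters lay higher and 1320 lower in *Ls*Sq than *Ls*CK replicate 1, while 928 lay higher and 1580 lower than *Ls*CK replicate 2. Of those 1580, 451 had no count in *Ls*CK replicate 1 or in *Ls*Sq. Among 30373 clusters tested in both fits, 129 (0.425%) lay higher and 168 (0.553%) lower with such a p in both, and 188 others had such a p in both with opposite signs, 142 of them lower than replicate 1 and higher than replicate 2.

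Some clusters were counted in only part of the libraries. More than 3 counts in both *Ls*Sq libraries and 0 in both *Ls*CK libraries were found in 166 clusters, and more than 3 in both *Ls*CK libraries with 0 in both *Ls*Sq libraries in 247. More than 3 counts in *Ls*CK replicate 2 with 0 in the other 3 libraries were found in 1991 clusters. Of these, 613 were animal-described, and clusters outside the list of shared genes were not searched for such descriptions. For *Ls*CK replicate 1, 396 clusters had more than 3 counts with 0 in the other 3 libraries. The corresponding numbers were 363 for *Ls*Sq replicate 1 and 221 for *Ls*Sq replicate 2. Only 4 of the 1991 passed the filter on low counts, so that they hardly enter the numbers over the 28157 clusters.

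Of the 31 clusters that the study's smaller tables name for pathways or for qRT-PCR, 0 passed the adjusted test (adjusted p 0.962 to 0.994 in edgeR). At an unadjusted p under 0.05 there were 1 higher and 4 lower, where 2.23% and 2.43% of all tested clusters were. Without overlap, 4 lay higher and 4 lay lower in *Ls*Sq (12.9% each, against 21.6% and 17.1% of all tested clusters). In 16 the *Ls*Sq mean fell between the *Ls*CK libraries (51.6%, against 42.8% of all tested clusters). Their median log2 fold change was -0.60, where that of all tested clusters was 0.00, with a range of -5.46 to 2.70. The study picked these clusters from contrasts of these same libraries, partly between the extracts, so their directions are a description. The primer pairs that the study designed for qRT-PCR were not placed on a cluster sequence here. Among the qRT-PCR clusters, those of the one lowest against both *Ls*CK libraries and of the one with the widest split between libraries are given. Those of the reference gene follow, all 5′ to 3′ and in lower case throughout.
FAR1-RELATED SEQUENCE 5-like forward: ggcatgttgacacacttccg
FAR1-RELATED SEQUENCE 5-like reverse: agtgtaagcactgacgccat
extensin-2-like forward: aagccatcgtaaaggtcgtgg
extensin-2-like reverse: tgtgacctccacaacagcac
ribosomal RNA small subunit methyltransferase forward: ctttctcgtgtgccatgacg
ribosomal RNA small subunit methyltransferase reverse: gccaacaacaacacctccgt

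The reference gene of the qRT-PCR, a ribosomal RNA small subunit methyltransferase (Cluster-15809.13020), had 19.7 and 20.2 CPM in *Ls*Sq, against 16.5 and 15.7 CPM in *Ls*CK. All 4 values lay close together, with the *Ls*Sq libraries slightly above (log2 fold change 0.31, SE 0.25). The cluster described as FAR1-RELATED SEQUENCE 5-like (Cluster-15809.7654), of a family of transcription factors derived from transposases that act in phytochrome A signalling in *Arabidopsis*, had 0.0326 and 0.170 CPM in *Ls*Sq (1 and 5 counts), against 1.57 and 7.68 CPM in *Ls*CK (55 and 220 counts). The groups did not overlap, and the *Ls*Sq mean stood at -3.42 from *Ls*CK replicate 1 and at -5.66 from replicate 2 on the log2 scale. Its log2 fold change was -5.46 (SE 1.24, unadjusted p = 0.00348 and adjusted p = 0.962 in edgeR), and both DESeq2 fits called it past the threshold of 0.05 on the adjusted p. *Ls*Cv libraries had 0.333 and 1.03 CPM, between the *Ls*Sq and the *Ls*CK values.

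Among 6 cytokinin clusters, 2 lay lower and 1 higher without overlap (33.3% and 16.7%, against 17.1% and 21.6% of all tested clusters). Cytokinin hydroxylase (Cluster-16226.0), which turns isopentenyl-type into zeatin-type cytokinins, had 0.293 and 1.23 CPM in *Ls*Sq, against 3.98 and 4.40 CPM in *Ls*CK. Every *Ls*Sq value lay well below both *Ls*CK values, which were close to each other, and the difference held against each library (log2 fold change -2.46, SE 0.69, unadjusted p = 0.0102 in edgeR). ZOG (Cluster-3690.0), a glucosyltransferase that stores zeatin as its O-glucoside, had 2.15 and 1.70 CPM in *Ls*Sq, against 11.1 and 3.81 CPM in *Ls*CK. It too lay lower without overlap (log2 fold change -1.95, SE 0.60, unadjusted p = 0.0149), at -2.49 from *Ls*CK replicate 1 and at -0.97 from replicate 2, just short of the limit of 1.

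LOG3 (Cluster-15809.14844), a phosphoribohydrolase that releases active cytokinin from its nucleotide, went the other way with 21.3 and 19.2 CPM in *Ls*Sq, against 6.95 and 13.5 CPM in *Ls*CK. The groups did not overlap, but the distance was 1.53 from *Ls*CK replicate 1 and 0.58 from replicate 2 (log2 fold change 0.99, SE 0.47, unadjusted p = 0.0741). IPT3 (Cluster-9839.0), an isopentenyltransferase of the entry step of synthesis, had 4.76 and 0.170 CPM in *Ls*Sq, against 0.572 and 0.175 CPM in *Ls*CK. Its log2 fold change of 2.70 rested on *Ls*Sq replicate 1 and was -1.12 without it. CKI1 (Cluster-15809.3160), a histidine kinase that can activate cytokinin signalling, had 22.9 and 21.2 CPM in *Ls*Sq, between 9.79 and 39.4 CPM in *Ls*CK. The B-type ARR (Cluster-14748.0), a transcription factor at the end of the pathway, had 4.21 and 2.79 CPM in *Ls*Sq, near the 3.75 CPM of *Ls*CK replicate 1 and above the 0.663 CPM of replicate 2.

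Of 7 auxin clusters, 1 lay higher and none lower without overlap (14.3% and 0.0%, against 21.6% and 17.1% of all tested clusters). In 5 the *Ls*Sq mean fell between the *Ls*CK libraries (71.4%, against 42.8% of all tested clusters). PINOID2 (Cluster-6384.0), a kinase that sets the polarity of PIN auxin carriers, had 13.9 and 10.3 CPM in *Ls*Sq, against 5.64 and 9.43 CPM in *Ls*CK (log2 fold change 0.68, SE 0.45, unadjusted p = 0.177). The nearest values of the groups, 10.3 and 9.43 CPM, were close. YUCCA10 (Cluster-14797.0) and YUCCA5 (Cluster-8784.0) are flavin monooxygenases of auxin synthesis. YUCCA10 had 2.25 and 1.53 CPM in *Ls*Sq, against 7.30 and 1.64 CPM in *Ls*CK, and YUCCA5 had 0.913 and 0.647 CPM in *Ls*Sq, against 2.83 and 0.384 CPM in *Ls*CK. Both were lower than *Ls*CK replicate 1 and near or above replicate 2.

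The Aux/IAA repressors IAA27 (Cluster-8434.0) and IAA17 (Cluster-5788.0) showed the opposite split. IAA27 had 4.40 and 6.54 CPM in *Ls*Sq, against 2.98 and 25.5 CPM in *Ls*CK, and IAA17 had 4.01 and 5.76 CPM in *Ls*Sq, against 3.38 and 17.8 CPM in *Ls*CK. In both, *Ls*Sq lay above *Ls*CK replicate 1 and below replicate 2, at log2 distances of 0.84 and -2.24 for IAA27 and of 0.50 and -1.88 for IAA17. GH3.1 (Cluster-18508.0), which conjugates auxin to amino acids, had 15.7 and 11.8 CPM in *Ls*Sq, against 12.9 and 3.0 CPM in *Ls*CK. PILS7 (Cluster-4711.0), of a family of auxin carriers of the endoplasmic reticulum, had 4.17 and 0.443 CPM in *Ls*Sq, against 23.5 and 0.314 CPM in *Ls*CK, and 11.5 and 0.867 CPM in *Ls*Cv. Replicate 1 was higher than replicate 2 in every group, and the spread within groups exceeded the difference between them (log2 fold change -2.37, SE 1.90).

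Of the 4 table clusters higher without overlap, 2 were receptor kinases of this kind, PSKR1 and EMS1. PSKR1 (Cluster-10341.0), a receptor of the growth-promoting peptide phytosulfokine, had 45.7 and 20.5 CPM in *Ls*Sq, against 11 and 14.7 CPM in *Ls*CK. It held against each *Ls*CK library by 1.47 and 1.05 (log2 fold change 1.37, SE 0.45, unadjusted p = 0.0205 in edgeR), with the *Ls*Sq libraries themselves 1.15 apart. EMS1 (Cluster-11176.0), a receptor kinase of anther development in *Arabidopsis*, had 19.1 and 12.8 CPM in *Ls*Sq, against 5.81 and 10.7 CPM in *Ls*CK (log2 fold change 0.95, SE 0.55). Its groups did not overlap, and it lay 0.54 above *Ls*CK replicate 2. PXY (Cluster-15809.1007), a receptor kinase of the vascular cambium, had 17.1 and 13.0 CPM in *Ls*Sq, against 15.5 and 14.0 CPM in *Ls*CK, so that the groups overlapped (log2 fold change 0.03, SE 0.32).

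Of the 6 clusters of peptide signals and receptors, 2 lay higher (33.3%, against 21.6% of all tested clusters) and none lower without overlap. In each of the 3 peptide clusters the groups overlapped. EPF/EPFL (Cluster-15809.11964), of a family of secreted peptides that set stomatal density, had 6.29 and 4.70 CPM in *Ls*Sq, between 2.40 and 6.81 CPM in *Ls*CK. The CIF precursor (Cluster-17059.0), of peptides that guide Casparian strip formation in roots, had 0.163 and 0.818 CPM in *Ls*Sq, against 0.372 and 2.76 CPM in *Ls*CK. The PNP precursor (Cluster-6996.0), a plant natriuretic peptide that acts on water and ion balance, had 0.261 and 1.06 CPM in *Ls*Sq, against 3.18 CPM in *Ls*CK replicate 1 and 0 counts in replicate 2. In the last cluster the *Ls*CK libraries enclosed both *Ls*Sq values.

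**Figure D3:**
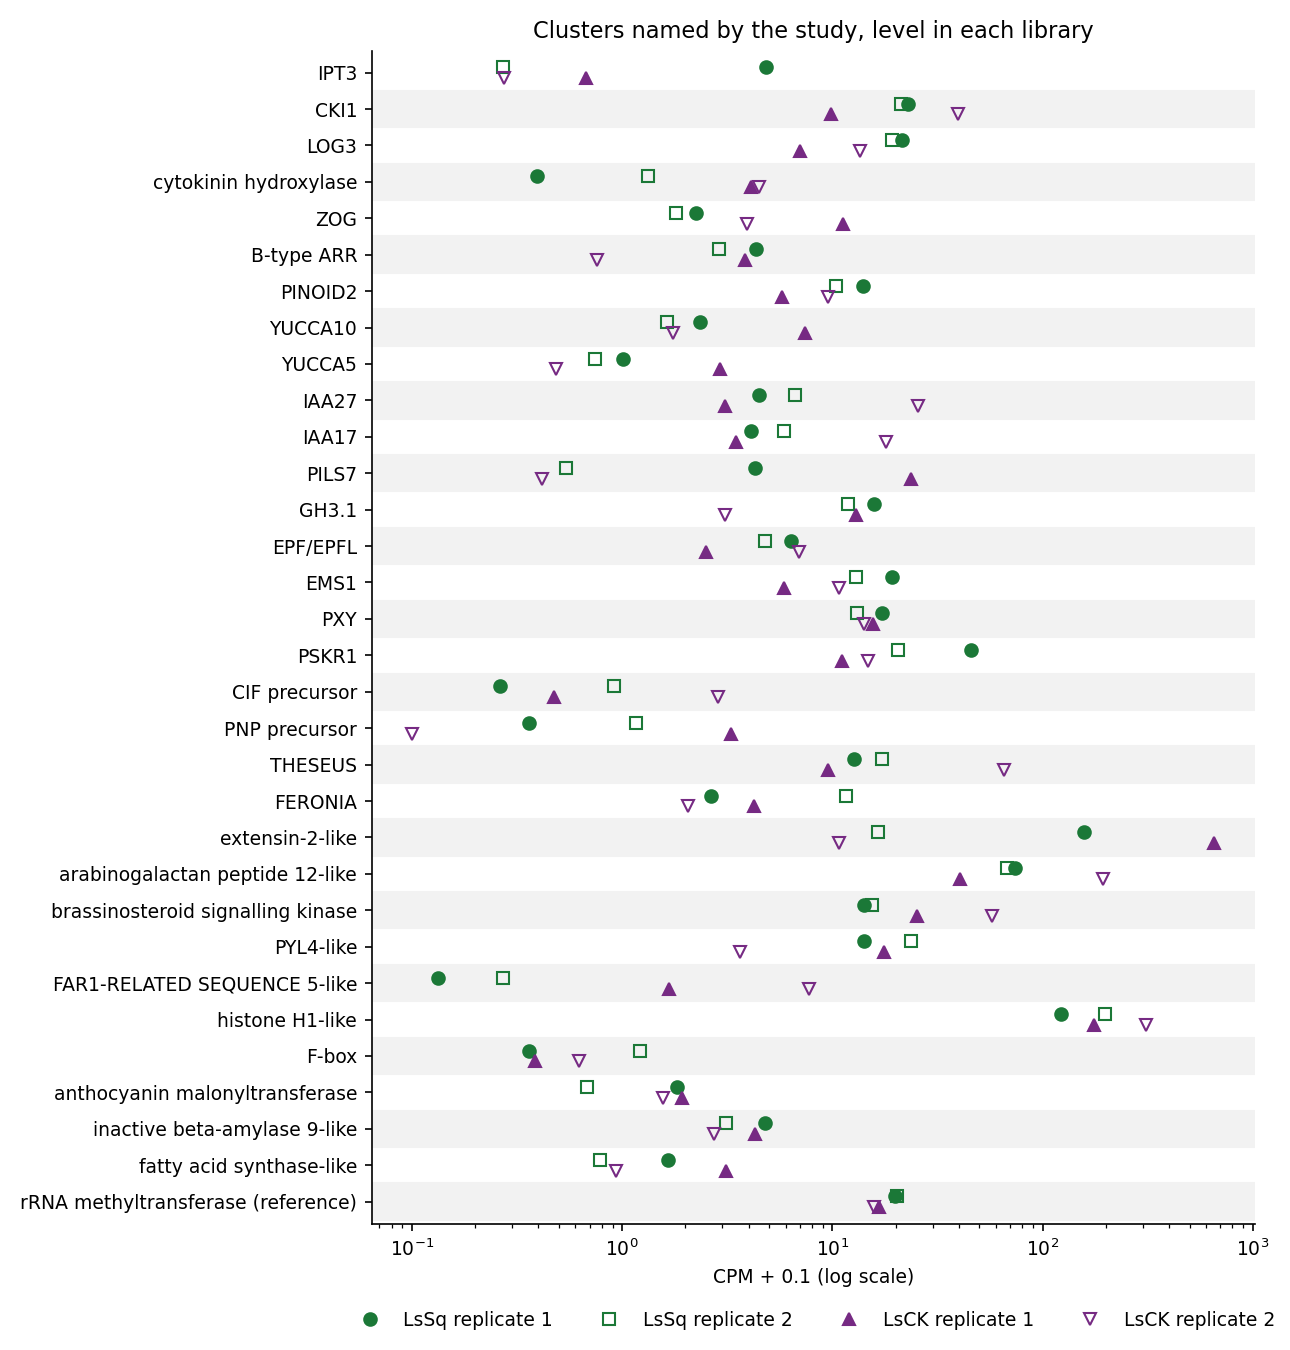
CPM + 0.1 (log axis) of the clusters that the study's smaller tables name, 1 row per cluster, with *Ls*Sq libraries in green and *Ls*CK libraries in purple (filled, replicate 1; open, replicate 2). *Ls*Sq values lie left of both *Ls*CK values for cytokinin hydroxylase, ZOG, the brassinosteroid signalling kinase and FAR1-RELATED SEQUENCE 5-like, and right of both for LOG3, PINOID2, EMS1, PSKR1 and, by a small step, the reference gene.

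Of 4 clusters of wall sensing and wall proteins, none was without overlap, where 21.6% of all tested clusters lay higher and 17.1% lower. THESEUS (Cluster-15809.12001), a receptor-like kinase that senses wall damage, had 12.6 and 17.1 CPM in *Ls*Sq, against 9.44 and 65.5 CPM in *Ls*CK. FERONIA (Cluster-18385.0), of the same kinase family, had 2.54 and 11.5 CPM in *Ls*Sq, against 4.15 and 1.96 CPM in *Ls*CK. The arabinogalactan peptide 12-like cluster (Cluster-15809.12921), a short wall glycoprotein, had 74.1 and 67.8 CPM in *Ls*Sq, against 40.3 and 194 CPM in *Ls*CK. The *Ls*Sq libraries agreed closely there and stood at 0.81 from *Ls*CK replicate 1 and at -1.45 from replicate 2. The edgeR fits against a single *Ls*CK library gave an unadjusted p of 0.0339 against replicate 1 and 0.0018 against replicate 2, with opposite signs. Extensin-2-like (Cluster-15809.8681), a hydroxyproline-rich structural protein of the wall, had 157 and 16.4 CPM in *Ls*Sq, 138 and 3.67 CPM in *Ls*Cv, and 657 and 10.6 CPM in *Ls*CK. Replicate 1 exceeded replicate 2 in all 3 groups, and the log2 fold change was -1.94 with an SE of 2.04.

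The brassinosteroid signalling kinase (Cluster-15809.3701), a membrane-anchored kinase that passes on the signal of the brassinosteroid receptor, had 14.1 and 15.4 CPM in *Ls*Sq, against 25.2 and 57.1 CPM in *Ls*CK. Both *Ls*Sq values lay below both *Ls*CK values, at -0.77 from replicate 1 and -1.95 from replicate 2 (log2 fold change -1.48, SE 0.42, unadjusted p = 0.011 in edgeR). The PYL4-like cluster (Cluster-15809.8656), an abscisic acid receptor, had 14.0 and 23.6 CPM in *Ls*Sq, enclosing the 17.5 CPM of *Ls*CK replicate 1 and above the 3.53 CPM of replicate 2. The remaining clusters chosen for qRT-PCR overlapped between the groups. Histone H1-like (Cluster-15809.7285), a linker histone, had 122 and 199 CPM in *Ls*Sq, against 175 and 310 CPM in *Ls*CK. Inactive beta-amylase 9-like (Cluster-16212.0), of the starch pathway, had 4.66 and 3.03 CPM in *Ls*Sq, against 4.18 and 2.65 CPM in *Ls*CK. The F-box, anthocyanin malonyltransferase and fatty acid synthase-like clusters stayed between 0.261 and 3.03 CPM in these libraries, with log2 fold changes of 0.77, -0.51 and -0.79 and SE of 1.22, 1.39 and 1.1. Each of these log2 fold changes was smaller in size than its SE, so no direction is read from them.

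The study also lists clusters that it called with both extracts against *Ls*CK, of which 1214 are held here. Of these, 213 carry a lettuce description with a function and 202 of the 213 were tested, so that counts over the 202 leave out the clusters with the fewest reads. edgeR called 0 of them, with 16 higher and 23 lower at an unadjusted p under 0.05, where 2.23% and 2.43% of all tested clusters were. Without overlap, 44 lay higher (21.8%) and 39 lower (19.3%) in *Ls*Sq, close to the 21.6% and 17.1% of all tested clusters, and 14 (6.93%) and 9 (4.46%) held against each *Ls*CK library, where 2.58% and 3.38% of all did. The position of *Ls*Sq between the controls was uneven in this list. The *Ls*Sq mean lay nearer to *Ls*CK replicate 1 than to replicate 2 in 199 of the 202 clusters (98.5%), where this was so in 12550 of all 28157 (44.6%). The study selected the list on its contrasts of these libraries with *Ls*CK, so large distances of its members from *Ls*CK can follow from the selection. These shares are a description, and why nearly all members lay nearer to replicate 1 was not tested.

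From that list, the 5 clusters higher and the 5 lower whose *Ls*Sq mean lay farthest from the nearer *Ls*CK library are named here, and since distance chose them, their values are a description. All 10 carry a gene symbol that the RefSeq annotation of the lettuce genome holds. The transcription factor MYB10-like (Cluster-15809.6665, LOC111884618), whose namesakes in apple and strawberry switch on anthocyanin synthesis, had 20.2 and 20.4 CPM in *Ls*Sq, against 1.75 and 0.838 CPM in *Ls*CK. The *Ls*Sq libraries were nearly equal and lay 3.49 and 4.49 above the *Ls*CK libraries (log2 fold change 3.96, SE 0.50, unadjusted p = 0.000119 in edgeR). MLO-like protein 6 (Cluster-15809.13887, LOC111901583), of a membrane protein family whose loss makes barley and *Arabidopsis* resistant to powdery mildew, had 24.9 and 34.5 CPM in *Ls*Sq, against 3.09 and 0.349 CPM in *Ls*CK. It lay 3.22 and 6.14 above the *Ls*CK libraries (log2 fold change 4.09, SE 0.88). Both DESeq2 fits called both clusters past the threshold of 0.05 on the adjusted p, whereas edgeR gave each an adjusted p of 0.962.

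Chlorophyllase-2, chloroplastic-like (Cluster-15809.933, LOC111894805), an enzyme that takes the phytol chain off chlorophyll, had 10.1 and 6.75 CPM in *Ls*Sq, against 2.92 and 1.01 CPM in *Ls*CK. UDP-glycosyltransferase 89B2-like (Cluster-10880.0, LOC111915635), of enzymes that add sugars to small molecules, had 6.42 and 8.41 CPM in *Ls*Sq, against 2.52 and 2.48 CPM in *Ls*CK. The *Ls*CK libraries were nearly equal in this cluster, and its distance was 1.52 from replicate 1 and 1.54 from replicate 2. Receptor-like protein 12 (Cluster-5533.0, LOC111919828), a cell surface protein with leucine-rich repeats and no kinase domain, had 35 and 18 counts in *Ls*Sq, against 7 and 0 counts in *Ls*CK. All 3 lay higher without overlap, with log2 fold changes of 2.09 (SE 0.57), 1.57 (SE 0.51) and 3.03 (SE 1.40). The *Ls*Cv libraries had 6.21 and 7.40 CPM, 4.29 and 10.8 CPM, and 0.480 and 0.801 CPM for these clusters.

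The zinc finger cluster named RICESLEEPER 2-like (Cluster-10001.0, LOC111884868), of a protein family derived from hAT transposases and needed for normal development in rice, had 3.65 and 5.76 CPM in *Ls*Sq, against 13.4 and 14.0 CPM in *Ls*CK. Its distance was nearly the same from each *Ls*CK library, -1.54 and -1.60 (log2 fold change -1.55, SE 0.40, unadjusted p = 0.00701 in edgeR). The putative receptor protein kinase ZmPK1 (Cluster-11095.0, LOC111899296), named for a kinase of maize, had 3 and 7 counts in *Ls*Sq, against 35 and 42 counts in *Ls*CK (log2 fold change -2.85, SE 1.03). Disease resistance-like protein DSC1 (Cluster-15809.15883, LOC111889222), of the intracellular immune receptor type, had 0.0652 and 0.818 CPM in *Ls*Sq, against 1.03 and 2.51 CPM in *Ls*CK. The *Ls*Sq libraries differed there more than the nearest values of the groups did.

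Proteoglycan 4-like (Cluster-10830.0, LOC111884992) had 0.913 and 0.749 CPM in *Ls*Sq, against 2.37 and 4.12 CPM in *Ls*CK (log2 fold change -1.96, SE 0.62). Prolyl endopeptidase-like (Cluster-5573.0, LOC111914318), of peptidases that cut after proline, had 0 counts in both *Ls*Sq libraries, against 16 and 42 counts in *Ls*CK. Set against a floor of 3 counts per *Ls*Sq library, it was at least 9.63-fold lower in *Ls*Sq. It also had 0 counts in both *Ls*Cv libraries.

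**Figure D4:**
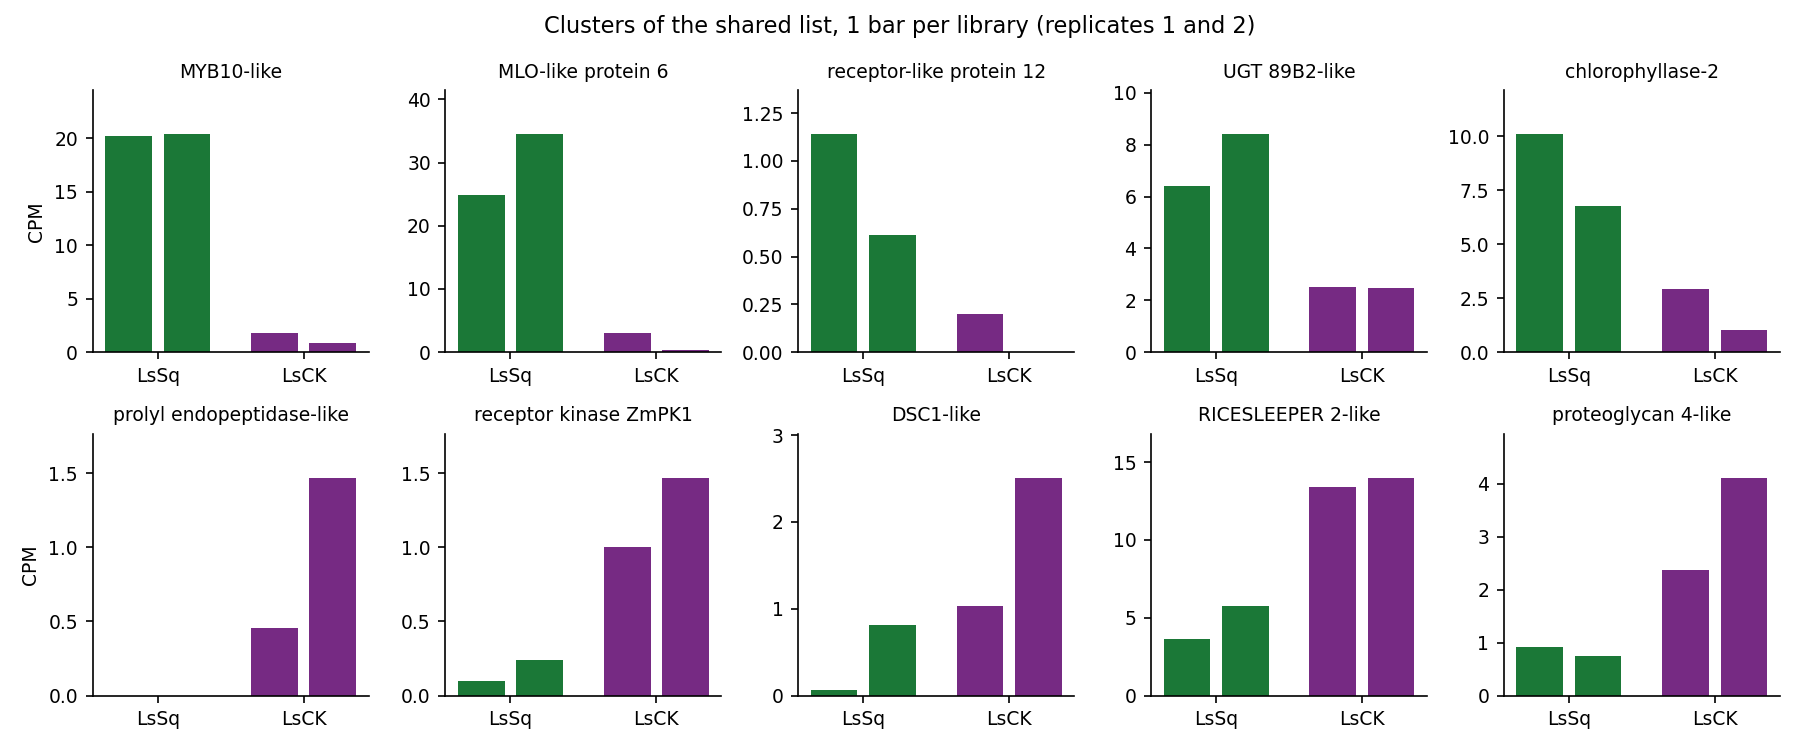
CPM of the 10 named clusters of the shared list in each library, *Ls*Sq in green on the left and *Ls*CK in purple on the right, with 1 bar per library and a separate linear axis from 0 for each cluster. Upper row, both *Ls*Sq bars stand above both *Ls*CK bars; lower row, both stand below, and prolyl endopeptidase-like has no bar in *Ls*Sq.

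Clusters of the shared list were grouped by words in their descriptions, and the groups are given by their counts, to be read against all tested clusters, of which 21.6% lay higher and 17.1% lower without overlap and 2.58% and 3.38% held. The log2 fold changes of the members go both ways in every group, so that a median does not describe every member. Of 17 tested receptor-like kinases and receptor-like proteins, 7 lay higher and 2 lower without overlap, but only 1 in each direction held against each *Ls*CK library. Log2 fold changes were above 0 in 9 and below 0 in 8, and the *Ls*Sq mean lay a median of 0.26 above *Ls*CK replicate 1 and 1.44 above replicate 2. Of 15 cell wall proteins and enzymes, such as expansins that loosen the wall, none lay higher and 4 lower without overlap. Of these, 0 and 1 held, the 1 being proteoglycan 4-like and not an expansin. Log2 fold changes were above 0 in 2 and below 0 in 13. The median was 0.23 to *Ls*CK replicate 1 and -1.97 to replicate 2, so the group's median log2 fold change of -1.20 has the sign of replicate 2 only.

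The 18 transcription factors (14 above 0 and 4 below 0) had 4 clusters higher and 3 lower without overlap, 2 and 0 of which held, with medians of -0.27 to *Ls*CK replicate 1 and 2.21 to replicate 2. Of 20 transporters and channels (7 above 0, 13 below 0), 4 lay higher and 3 lower, with medians of 0.09 and -1.61, and 0 and 1 held. Of 16 enzymes of specialised metabolism (8 above 0, 8 below 0), 4 lay higher and 2 lower, with medians of 0.17 and 1.60, and 2 and 0 held. Of 15 disease resistance proteins (5 above 0, 10 below 0), 3 lay in each direction, with medians of -0.28 and -1.81, and 1 and 2 held. Of 14 lipid enzymes (8 above 0, 6 below 0), 3 lay higher and 2 lower, with medians of -0.01 and 1.57, and none held. Over all tested clusters the medians were 0.00 and 0.05. Since the list was selected for large differences from *Ls*CK, large distances of its groups are no finding of this comparison.

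**Figure D5:**
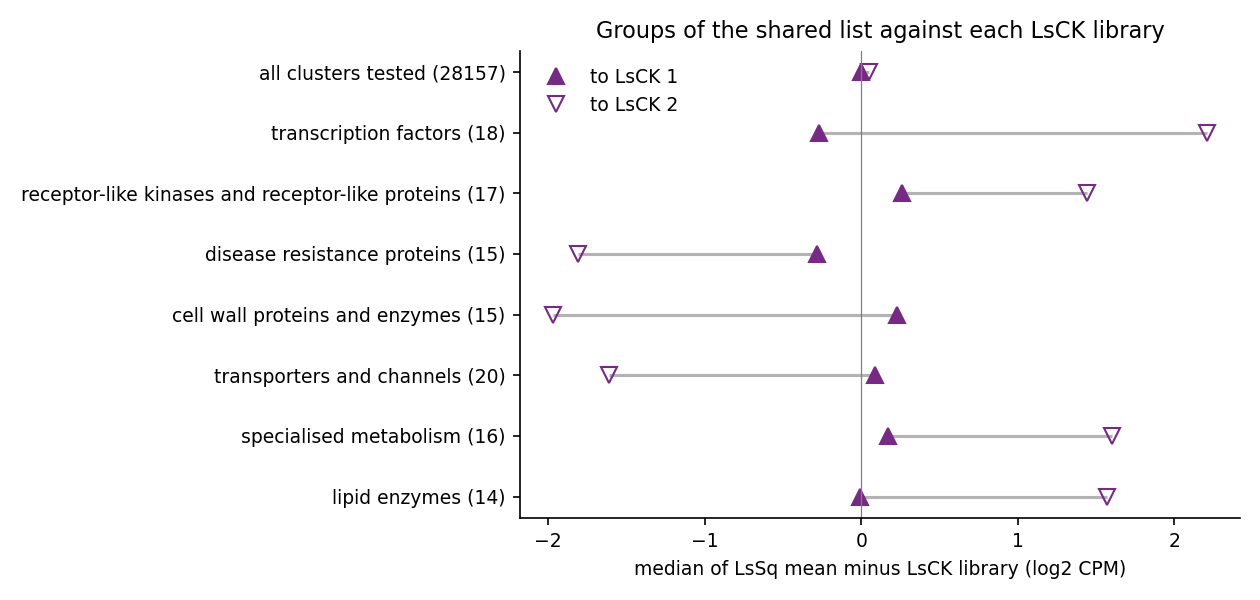
Median of the *Ls*Sq mean minus *Ls*CK replicate 1 (filled) and minus *Ls*CK replicate 2 (open), in log2 CPM, for all tested clusters and for 7 groups of the shared list, with the number of tested clusters in brackets. Filled symbols lie between -0.28 and 0.26 and open symbols between -1.97 and 2.21.

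Against the other extract, the same test of *Ls*Sq versus *Ls*Cv called 0 of 28157 clusters, with a smallest adjusted p of 0.158 and 4496 clusters at an unadjusted p under 0.05. Named clusters that lay apart from *Ls*CK in the same direction with both extracts included MYB10-like, with 10.3 and 17.5 CPM in *Ls*Cv, and MLO-like protein 6, with 31.0 and 25.4 CPM in *Ls*Cv. Both were taken from the list that the study called with both extracts against *Ls*CK, so this agreement follows from the selection. PSKR1 had 8.35 and 12.3 CPM in *Ls*Cv, and cytokinin hydroxylase had 4.55 and 6.07 CPM, in neither case apart from *Ls*CK on the side of *Ls*Sq. The study selected PSKR1 and cytokinin hydroxylase for a difference between the extracts, so these values are a description.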

How the data were processed

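Poly-A RNA of lettuce leaves was sequenced in 6 libraries, 2 per group, and the groups were taken from the labels. The authors assembled clean reads with Trinity, grouped transcripts with Corset and deposited the expected count per cluster and library from RSEM, without normalization, and 11199 clusters hold a fractional count in at least 1 library because reads that match several transcripts are divided. No genome build is involved. Expected counts were rounded to whole numbers, filtered with filterByExpr and scaled by TMM. The test was edgeR 4.0.16 in R 4.3.3 (glmQLFit, glmQLFTest) on all 6 libraries in 1 fit, with Benjamini-Hochberg adjustment over 28157 clusters. Fold changes used a prior count of 0.125 and log2 CPM a prior count of 2. DESeq2 1.42.0 served as an alternative, as did other scalings, filters, prior counts, thresholds, a replicate block and each library left out. Columns not used numbered 0. The fits were tested on simulated data. Figures were drawn with matplotlib 3.10.9 in Python 3.11.15.

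Named were all 32 clusters of the study's smaller tables and, of its list of shared genes (held here in part), the 5 higher and 5 lower lettuce-described clusters without overlap that lay farthest from the nearer *Ls*CK library. Of 288 gene symbols in its descriptions, 262 were found in the RefSeq table of assembly Lsat_Salinas_v11, used for names only. The study's own fold changes and qRT-PCR values were not used. The comparison, the lists and the rules were chosen with earlier results of these data known.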

Additional observations from a re-analysis of the deposited data

How the results depend on the processing

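No cluster passed an adjusted p of 0.05 in any edgeR fit adjusted over all clusters it tested, nor an adjusted p of 0.01, while DESeq2 called 140 clusters with all 6 libraries and 174 with 4. At an unadjusted p under 0.05, clusters lower in *Ls*Sq numbered 1189 and 1415 in these DESeq2 fits and 1173 without a filter, against 683, and the median absolute log2 fold change was 0.52, 0.53 and 0.52, against 0.38, with clusters of few reads included. With 1 of the 6 libraries left out, clusters with such a p numbered 113 to 1648 higher and 158 to 1580 lower, the lowest without *Ls*Sq replicate 1 and the highest without a *Ls*CK library. The median absolute log2 fold change was then 0.43 to 0.57 over all levels, 0.78 to 1.05 under 1 CPM and 0.26 to 0.40 from 20 to 100 CPM. Clusters that held against each *Ls*CK library numbered 255 higher and 423 lower with a limit of 1.5. With 1 *Ls*Sq library they numbered 846 to 1170 higher and 1064 to 1615 lower, where the requirement falls on a single library. Restricting the fits against each *Ls*CK library alone to the clusters of the fit on all 6, a setting chosen after the data had been seen, kept 129 higher and 168 lower in both and gave 1 adjusted call (adjusted p 0.046) against replicate 2.

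Of 42 named clusters, 22 kept their sign under every setting. With 1 library left out the sign turned for 20, and for 16 of these when it was a *Ls*CK library. Where *Ls*CK replicate 1 turned it, the log2 fold change ranged from -1.95 to 0.17 for YUCCA10, -1.86 to 0.98 for YUCCA5, -4.74 to 2.82 for PILS7, -0.34 to 1.19 for EPF/EPFL, -2.61 to 7.25 for the PNP precursor, -4.35 to 2.99 for extensin-2-like and -1.50 to 0.38 for fatty acid synthase-like. Where *Ls*CK replicate 2 did, it ranged from -0.87 to 1.17 for CKI1, -0.10 to 2.36 for the B-type ARR, -2.25 to 0.87 for IAA27, -1.90 to 0.53 for IAA17, -0.18 to 0.21 for PXY, -3.23 to 0.39 for the CIF precursor, -2.17 to 0.65 for THESEUS, -1.48 to 0.81 for arabinogalactan peptide 12-like and -0.17 to 0.50 for inactive beta-amylase 9-like. PXY and inactive beta-amylase 9-like also turned without *Ls*Sq replicate 1, as did IPT3 (-1.12 to 3.74), and FERONIA (-0.27 to 1.91), F-box (-0.63 to 1.47) and anthocyanin malonyltransferase (-1.50 to 0.06) turned without *Ls*Sq replicate 2. PXY was -0.02 in DESeq2 with 4 libraries and -0.03 without a filter. With the replicate number as a block (replicate block), 0 clusters passed, 885 lay higher and 895 lower at an unadjusted p under 0.05, and the sign turned for CKI1 (0.18) and the PNP precursor (0.49). Across clusters, the deviations of same-numbered libraries had a correlation of 0.239 between *Ls*Sq and *Ls*CK, 0.153 between *Ls*Sq and *Ls*Cv and 0.186 between *Ls*Cv and *Ls*CK. With 2 numbers per group and no label that says what a number marks, this is a hint from the data that numbers may go together, and the pairing remains unsettled. The cause of these changes was not tested. Depth limits clusters under 1 CPM, where 3 counts are about 0.1 CPM.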
